A study of Mus musculus with 55 samples.

Results

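The report follows 8 genes that mark cholangiocytes, the epithelial cells that line the bile ducts, and the ductular reaction, the spread of duct-like epithelial cells through the damaged liver. These genes are Epcam, Cldn7, Cd24a, Krt7, Krt19, Krt23, Sox9 and Spp1. They were chosen from known biliary markers with their measured values in these livers in view, so their pattern after CCl4 damage is given as a description with no test. All 8 were found by symbol among the 49997 symbols of the earlier tables and the 49568 of the later table, of which 34490 were listed in both.

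RNA of whole adult liver was measured in C57BL/6 mice in which Rnf43 and Znrf3, E3 ligases that remove Wnt receptors from the cell surface, had been deleted in hepatocytes (R&Zdel), and in mice that kept both genes (R&Zflox). Both genotypes carried floxed alleles of both genes around the exons of the RING domain. R&Zdel mice had received either tamoxifen, with a Cre-ERT2 driven by the albumin promoter, or the AAV8-TBG-Cre virus, and R&Zflox mice had received vehicle or a virus without Cre. Both drivers act in hepatocytes, so that bile duct cells are not the target of the deletion. Livers were undamaged at 1, 3 or 7 months after deletion (1M, 3M and 7M), at 7 or 21 d after partial hepatectomy (PHx), or at 4, 50 or 170 d after the last injection of carbon tetrachloride (CCl4), a hepatotoxin given in 2 injections a week for 6 weeks. The labels mark both genotypes of the CCl4 groups as chronically damaged, while the methods also name an oil vehicle for unrecombined controls, and the labels were followed here.

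At 1M there were 4 undamaged libraries of each genotype, at 3M there were 5 R&Zflox and 2 R&Zdel libraries, and at 7M there were 5 of each. PHx groups held 3 libraries each. CCl4 groups held 2 libraries each, with the exception of R&Zflox at 50 d, which held 1. The 1M, 3M and PHx livers sequenced in the later batch (batch 2) had been induced with virus, and the 7M livers and all livers of the earlier batch (batch 1) with tamoxifen. All CCl4 libraries were of batch 1 and of male mice. The labels do not say whether each library came from its own animal, so p-values measure the spread between these samples, which may in part be technical. Another 5 libraries, whose title and characteristics gave different groups, were kept out of all comparisons.

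In the healthy liver, cholangiocytes are a small fraction of all cells, and most RNA of a whole-liver sample comes from hepatocytes. EpCAM, claudin 7 and CD24 sit at the epithelial surface, keratins 7, 19 and 23 form intermediate filaments, SOX9 is a transcription factor of duct and progenitor cells, and osteopontin, the product of Spp1, is a secreted matrix protein. Ductular reactions accompany many forms of chronic liver injury, and hepatocytes that take on biliary features can turn on the same genes, Sox9 and Spp1 among them.

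The 53 libraries held between 11721687 and 38692089 counts (median 22982428). Batch 1 libraries detected 15657 to 18545 of the shared symbols and batch 2 libraries 11171 to 13874, so CPM levels were read in each batch apart. The tests in undamaged livers pooled both batches with batch in the model. Over whole genes, Rnf43 reached 18.3 to 36.4 CPM (counts scaled by the total of the library) in the 9 R&Zdel libraries of batch 1 and 4.98 to 18.5 CPM in the 9 R&Zflox libraries, and Znrf3 reached 11.6 to 25.9 and 4.50 to 9.52 CPM. Both were thus higher and not lower in R&Zdel, but a whole-gene count does not resolve the deleted exons and so does not check the deletion. All 8 hepatocyte markers, Alb and Hnf4a among them, were detected in every library, as the label of liver requires.

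Before damage, the libraries of both genotypes overlapped for 7 of the 8 genes, and Spp1 was the highest of the 8 per kilobase of exon. How many of all genes overlapped was not counted. Epcam, the adhesion molecule by which biliary cells are commonly sorted, reached 1.499, 1.71, 0.824 and 0.803 CPM in the 4 undamaged R&Zflox livers of batch 1 and 2.69, 0.783 and 2.36 CPM in the 3 R&Zdel livers. Its groups overlapped. Krt7 was the gene that did not, with 0.661, 1.06, 1.11 and 1.20 CPM in R&Zflox and 2.40, 1.48 and 1.59 CPM in R&Zdel. The R&Zdel liver at 2.40 CPM was a female of 3M and the others were males of 7M. In R&Zflox the 3M livers were male and the 7M livers of both sexes, so time and sex were not matched between genotypes. Sox9 reached 3.13, 9.87, 4.20 and 3.01 CPM in the R&Zflox livers and 2.07, 1.83 and 3.52 CPM in the R&Zdel livers. Spp1 reached 72.5, 52.7, 77.4 and 107 CPM against 122, 52.5 and 139 CPM, and Krt19 1.15, 3.14, 1.11 and 2.13 CPM against 2.04, 1.44 and 1.37 CPM. Sox9 was lower than in every R&Zflox liver in 2 of the 3 R&Zdel livers, and Spp1 and Krt19 overlapped more widely. The ratio of the R&Zdel to the R&Zflox mean lay between 0.489 for Sox9 and 1.80 for Krt7 over the 8 genes.

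Upon CCl4 damage, all 8 genes were higher in R&Zdel than in R&Zflox livers at 4 d, without overlap between the libraries of the 2 genotypes. The ratio of mean CPM ran from 5.69 for Sox9 to 135 for Epcam, with a median of 38.4. For scale, 10.3% of the 11358 genes tested were called higher in R&Zdel at 4 d, a share from which nothing is read for genes chosen with this time course in view. No share of all genes without overlap was counted at 4 d, so nothing is read from the count of 8 either. In bulk tissue, more cells of a type and more RNA per cell cannot be told apart.

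**Figure D1:**
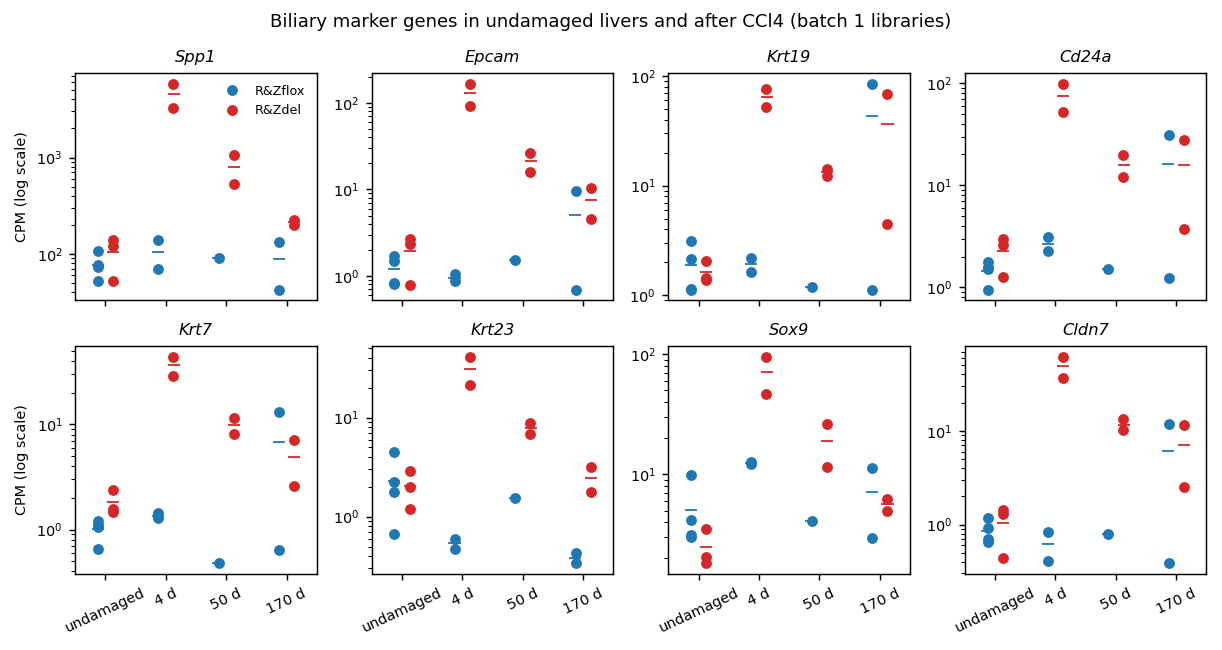
CPM (log scale) of each of the 8 genes in the batch 1 libraries, undamaged and at 4, 50 and 170 d after CCl4, in R&Zflox (blue) and R&Zdel (red). Each point is 1 library and each bar the group mean; the R&Zdel points stand highest at 4 d for 7 of the 8 genes, and for Krt19 an R&Zflox point at 170 d (85.1 CPM) is the highest.

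Among the surface proteins, Epcam (chromosome 17, 87635979 to 87651127 on mm10, plus strand) reached 91.2 and 167 CPM in the R&Zdel livers at 4 d and 0.866 and 1.05 CPM in the R&Zflox livers. Its group means were 129 ± 53.8 and 0.958 ± 0.130 CPM (SD, n = 2 each). This was the widest gap of the 8 genes, a log2 fold change of 6.56. Cldn7 (chromosome 11, 69964779 to 69967886), a tight-junction claudin that binds EpCAM, reached 36.8 and 62.0 CPM against 0.832 and 0.406 CPM. Since Cldn7 is annotated on 1 alternate contig as well, its reads may have been split between both places. Cd24a (chromosome 10, 43579169 to 43584265), a glycosylated surface protein used as a progenitor marker, reached 51.9 and 99.0 CPM against 2.26 and 3.08 CPM. For all 3, the lower R&Zdel library was above the higher R&Zflox library by more than the spread between replicates of either genotype.

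The promoter of Epcam, which had the widest gap, is printed here from the RefSeq promoter table of GRCm38.p6 (chr17:87635729-87635978, plus strand, the 250 bases before the gene's start). The letters CCGCCC in capitals are a GC box, the site of SP1-type factors, whose first base lies at -58 from the start.
Epcam: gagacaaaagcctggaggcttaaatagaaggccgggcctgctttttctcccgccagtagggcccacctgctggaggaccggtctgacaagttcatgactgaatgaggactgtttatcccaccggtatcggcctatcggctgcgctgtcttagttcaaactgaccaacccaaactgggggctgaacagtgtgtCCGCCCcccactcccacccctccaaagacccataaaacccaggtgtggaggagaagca

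The keratins showed the same order at 4 d. Krt7 (chromosome 15, 101412403 to 101427806), a keratin of simple ductal epithelia, reached 28.8 and 44.3 CPM in R&Zdel and 1.43 and 1.29 CPM in R&Zflox. Krt19 (chromosome 11, 100140810 to 100145926), the keratin most used to stain bile ducts, reached 52.3 and 75.5 CPM against 1.63 and 2.20 CPM. Krt23 (chromosome 11, 99477973 to 99493120), a type I keratin reported in stressed hepatocytes and ductular reactions, reached 21.3 and 41.3 CPM against 0.599 and 0.474 CPM. The log2 fold changes of Krt23 and Krt19 were 5.34 and 4.56. The libraries at 170 d, which entered the fit of these fold changes, lay farther apart for Krt19 than for any other of the 8 genes.

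Sox9 (chromosome 11, 112782210 to 112787757), which marks ducts and hepatocytes with biliary features, reached 46.4 and 95.2 CPM in R&Zdel at 4 d. In R&Zflox it reached 12.6 and 12.3 CPM, so Sox9 had the smallest gap of the 8, a log2 fold change of 1.99. Its damaged R&Zflox mean was 2.47 times the undamaged R&Zflox mean, where 2.47 was the highest of these ratios over the 8 genes and 0.234, for Krt23, the lowest. Against its own undamaged mean, R&Zdel at 4 d was 28.6 times higher for Sox9, which lies inside the range of 15.5 (Krt23) to 66.5 (Epcam) of the other genes.

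Spp1 (chromosome 5, 104435111 to 104441053), which biliary cells secrete in injury and activated macrophages also make, was by far the most abundant of the 8. It reached 3271 and 5842 CPM in the R&Zdel livers at 4 d and 69.8 and 139.6 CPM in the R&Zflox livers, a log2 fold change of 4.94. Per kilobase of exon, the scale on which genes can be compared, the mean Spp1 level of these R&Zdel livers was 2748 CPM. On that scale Epcam followed with 62.7, Krt19 with 45.1 and Cd24a with 41.6 CPM per kilobase. Krt7 had 23.04, Krt23 20.2 and Sox9 17.1 CPM per kilobase. Cldn7 came out just under Sox9, but its exon length may also count the alternate contig, so its place in this order is not firm. Below Spp1, neighbours in this order overlapped between their libraries, with the exception of Cd24a over Krt7, and the second R&Zdel library exceeded the first by 1.44 to 2.05 times for every gene. Spp1 was the highest of the 8 per kilobase in every genotype and at every time in batch 1.

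The promoter of the main Spp1 start (chr5:104434861-104435110, plus strand, RefSeq promoter table of GRCm38.p6) is shown since this gene supplied most of the biliary marker RNA. Capitals mark TATAAA, first base at -211, and CTTTGT, the reverse complement of the SOX letters ACAAAG, first base at -168.
Spp1: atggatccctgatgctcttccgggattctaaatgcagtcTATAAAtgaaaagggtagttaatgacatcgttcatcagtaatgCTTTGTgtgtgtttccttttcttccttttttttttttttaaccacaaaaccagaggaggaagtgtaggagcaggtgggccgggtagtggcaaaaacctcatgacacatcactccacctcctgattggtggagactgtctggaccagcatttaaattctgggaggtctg

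Windows of 250 bases were listed for 5 of the 8 genes, 7 windows in all, and Krt19, Sox9 and Cd24a had no entry. On either strand, ACAAAG was found in 2 of the 7 windows, both of Spp1, and in 16.5% of the 32851 promoters of the table. GGGCGG was found in 3 windows, of Cldn7, Epcam and Krt7, and in 32.7% of the table, and GGAATG, the TEAD letters, in 1 window of Cldn7 and 12.6%. TATAAA was found in 1 window of Spp1 and 12.4% of the table. CTTTGAT, the TCF/LEF letters, was found in none of the 7 and in 3.21% of the table. None of these motifs overlaps another in the printed windows, and a match of letters is a description and no site of binding.

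At 50 d, the R&Zdel means stood at between 16.4% (Epcam) and 27.1% (Krt7) of their 4 d means. They were still above the damaged control and above the undamaged R&Zdel livers for all 8 genes. How many of all genes did so was not counted, so nothing is read from this count. Epcam reached 16.1 and 26.3 CPM in R&Zdel and 1.52 CPM in the single R&Zflox liver, Cldn7 10.1 and 13.2 against 0.800 CPM, and Cd24a 12.1 and 19.6 against 1.52 CPM. Krt7 reached 8.21 and 11.6 CPM against 0.480 CPM, Krt19 14.2 and 12.3 against 1.20 CPM, and Krt23 8.85 and 6.80 against 1.56 CPM. These are the surface proteins and the keratins. Sox9 reached 11.6 and 26.4 CPM against 4.08 CPM, and Spp1 528 and 1054 against 92.0 CPM.

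The ratio of the R&Zdel mean to the R&Zflox liver at 50 d ran from 4.66 for Sox9 to 20.6 for Krt7, with a median of 10.7, and the median log2 fold change was 3.17. Over all tested genes, the median was 0.01 and 2.64% were called higher. With 1 R&Zflox library, the spread of that arm was borrowed from the other groups. The median log2 fold change fell to 1.31 where the libraries with conflicting labels were placed by their characteristics, and to 1.13, with Krt19 at -1.50, where both R&Zflox 170 d libraries were counted as 50 d.

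At 170 d, the 4 libraries did not sort by genotype. R&Zdel replicate 2 and R&Zflox replicate 1 were high for 5 of the 8 genes, and R&Zdel replicate 1 and R&Zflox replicate 2 were low. Krt19 reached 4.43 and 67.9 CPM in R&Zdel and 85.1 and 1.12 CPM in R&Zflox, and Cd24a 3.71 and 27.6 against 31.3 and 1.25 CPM. Krt7 reached 2.61 and 7.16 against 13.1 and 0.644 CPM, Cldn7 2.54 and 11.67 against 11.71 and 0.387 CPM, and Epcam 4.60 and 10.5 against 9.50 and 0.687 CPM. For these 5 surface and keratin genes the spread between the 2 livers of a genotype exceeded the difference between genotypes.

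**Figure D2:**
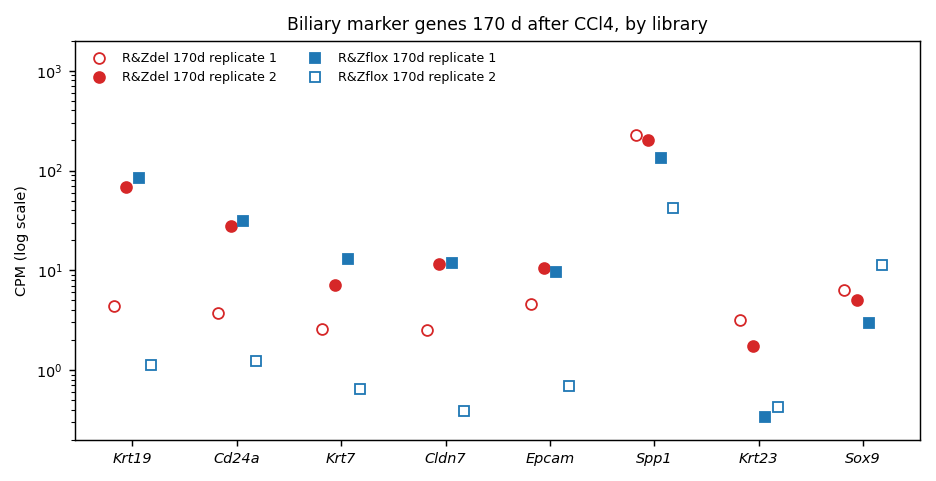
CPM (log scale) of the 8 genes in the 4 libraries at 170 d after CCl4; circles are R&Zdel, squares R&Zflox, and filled symbols are R&Zdel replicate 2 and R&Zflox replicate 1. Filled symbols lie above open ones of both genotypes for Krt19, Cd24a, Krt7, Cldn7 and Epcam, and not for Spp1, Krt23 and Sox9.

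Krt23, Sox9 and Spp1 did not follow that pair. Krt23 reached 3.19 and 1.76 CPM in R&Zdel and 0.339 and 0.429 CPM in R&Zflox, and Spp1 226 and 202 against 133 and 42.2 CPM. For these 2 of the 8 genes the libraries did not overlap between genotypes. The share of all genes without overlap at 170 d was not counted, so nothing is read from this. Sox9 reached 6.28 and 5.01 against 2.99 and 11.3 CPM, and its groups overlapped. The background at 170 d was 71 of 11358 genes called in either direction, 0.625%. The median log2 fold change of the 8 genes was -0.13, and 2.98 without R&Zflox replicate 1, so leaving out that library turned its direction.

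Both high libraries also carried 592 (R&Zflox) and 362 CPM (R&Zdel) of Dmbt1, a secreted scavenger receptor made by injured duct epithelium and gut, which was at most 3.35 CPM in the other 21 libraries of batch 1. Between the remaining libraries of each genotype at 170 d, the R&Zdel level was 0.556 (Sox9) to 7.43 times (Krt23) the R&Zflox level, with 1 library each and no test. The same libraries carried 53.2 (R&Zflox) and 58.0 CPM (R&Zdel) of Ctrb1, a pancreatic chymotrypsinogen at no more than 0.194 CPM elsewhere. The summed CPM of 6 pancreas markers, Ctrb1 among them, was 53.6 (R&Zflox) and 60.6 (R&Zdel) in the high pair, most of it Ctrb1. It was 0.301 and 1.41 in the other R&Zflox and R&Zdel library. In each of the high pair, 4 of the 6 markers were at 0. Neutrophil markers summed to 72.8 CPM in R&Zflox replicate 1, and to 2.45, 1.30 and 4.08 CPM in the other R&Zflox and the 2 R&Zdel libraries. The part of pancreatic RNA or neutrophils in the levels of the high pair was not tested.

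Across the 11 CCl4 libraries, which share time, batch and genotype effects, the 28 pairs of the 8 genes had Pearson correlations of log2 CPM between 0.266 and 0.982, with a median of 0.855. Without the high pair at 170 d they lay between 0.754 and 0.996, with a median of 0.982. Outside the 8 genes, the pattern most like their mean profile, among 11913 genes with a mean above 1 CPM, was that of Ehf, an epithelial ETS factor (r = 0.993). Then came Krtcap3 (0.991), Rab27b (0.990), Fxyd3 (0.988), Trpm4 (0.988), Spint1 (0.984), Tspan8 (0.983) and Esrp1 (0.982). Spint1, which encodes a membrane protease inhibitor, and Esrp1, a splicing regulator of epithelia, had means of 41.0 and 6.92 CPM in R&Zdel at 4 d and of 0.488 and 0.0502 CPM in R&Zflox.

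To see how far the description extends, 34 further cholangiocyte genes outside the 8 were tested with edgeR's quasi-likelihood test over all genes, where a call asked for a false discovery rate (Benjamini-Hochberg) under 0.1 and a fold change over 2. This list was also drawn up with earlier results of these data known, so its counts describe these libraries and are no independent evidence of the pattern. The filter on low counts asked for 1 CPM in 6 of the 11 libraries, which the 6 R&Zdel libraries could meet alone, and removed 8 of the 34, so a gene near 0 in R&Zflox passed through the group where it was high. At 4 d, 18 of the 26 genes that passed it rose in R&Zdel and 0 fell, where 10.3% of all genes were called higher. With no filter, 27 of the list were called. All 4 transcription factors, all 4 cilium genes and all 3 genes of the ductular reaction rose, along with 5 of 9 junction and surface genes, 1 of 4 transport genes and 1 of 2 keratins that hepatocytes share.

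**Figure D3:**
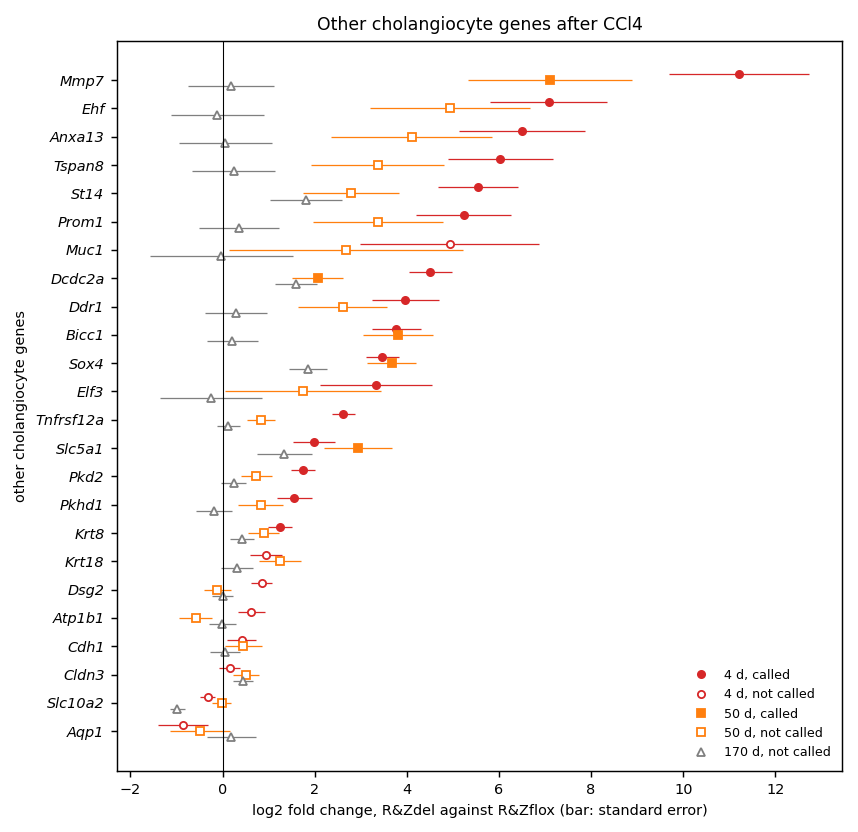
Log2 fold change, R&Zdel against R&Zflox, with its standard error, of 24 of the 26 further cholangiocyte genes tested at 4 d (red), 50 d (orange) and 170 d (grey) after CCl4; filled symbols passed the test. At 4 d 16 of the symbols drawn are filled, at 50 d 5, and at 170 d none.

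Mmp7, a matrix metalloprotease of injured ducts, reached 167 and 317 CPM in R&Zdel at 4 d and 0.133 and 0 CPM in R&Zflox, the widest gap of this list. Ehf rose by 7.08 on the log2 scale (standard error, SE, 1.27), from 0.333 and 0.135 CPM in R&Zflox to 35.2 and 56.7 CPM. The limits of the list and of the filter given above hold for these genes. Anxa13 and Tspan8, an annexin and a tetraspanin of epithelial surfaces, rose by 6.51 and 6.03, and St14 and Prom1, the protease matriptase and the stem-cell antigen prominin 1, by 5.54 and 5.23.

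Krt8, a keratin that hepatocytes also make, reached 514 and 522 CPM against 152 and 159 CPM and passed the test (1.25, edgeR adjusted p = 0.0160). Its partner Krt18 had 0.94 with an edgeR adjusted p of 0.0939 and missed the fold change asked for. Cftr, the chloride channel of secreting ducts, reached 1.20 and 1.51 CPM in R&Zdel at 4 d and 0 in both R&Zflox livers, and Sctr, the secretin receptor, 0.763 and 1.41 CPM against 0.0333 and 0.0339 CPM. Both were above R&Zflox in these 4 libraries, but neither passed the filter and neither was tested.

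At 50 d, 6 of the 26 genes rose, Mmp7, Bicc1, Sox4, Slc5a1 and Dcdc2a among them, and 0 fell, where 2.64% of all genes were called higher. This count was 1 without R&Zdel replicate 1 and 0 where the libraries with conflicting labels were placed by their characteristics. At 170 d, 0 of 26 passed by edgeR's quasi-likelihood test, where 5 had an unadjusted p below 0.05, and 2 passed by the likelihood ratio test and 2 by DESeq2. The R&Zdel effect was larger at 4 d than at 170 d for 11 of the 26, with 3.75% of all genes called in that direction. Between 1 and 4 of the 26 passed that test without R&Zdel 4 d replicate 2, without R&Zflox 4 d replicate 1 or 2, or without any one of R&Zdel 170 d replicates 1 and 2 and R&Zflox 170 d replicate 1.

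Set against undamaged livers of the same genotype, all 8 genes at 4 and 50 d in R&Zdel lay above every undamaged R&Zdel library of batch 1. Their median log2 fold change was 4.57 at 4 d and 2.64 at 50 d. At 170 d, 7 of the 8 did, all but Krt23, with a median of 1.66. The share of all genes above every undamaged library was not counted at any of these times, so nothing is read from these counts. Of 31 further cholangiocyte genes tested in this fit, 24 rose at 4 d, where 19.6% of all 12608 genes were called higher, 16 rose at 50 d, where 10.2% were, and 0 were called at 170 d, where 0% were called in either direction. For that last count, 11 of the 31 had an unadjusted p below 0.05, and the likelihood ratio test and DESeq2 called 3 each.

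In R&Zflox livers, the 8 genes at 4 d stood at 0.234 (Krt23) to 2.47 times (Sox9) their undamaged means. Cd24a, Krt7 and Sox9 lay above every undamaged R&Zflox library, Krt23 lay below every one, and the other 4 overlapped. The median log2 fold change of the 8 genes was 0.16. The share of all genes without overlap was not counted here either. Of the 31 further genes, 3 rose (Cldn4, Slc5a1 and Cdh1), where 2.26% of all genes were called higher. This count was 0 without R&Zflox 7M replicate 1 or without either R&Zflox 4 d library, and 1 without R&Zflox 3M replicate 2. Cdh1, E-cadherin, went from 8.16 to 19.7 CPM in the undamaged R&Zflox livers to 39.3 and 55.3 CPM. At 50 d the median of the 8 was -0.21 and 0 of the 31 were called (edgeR quasi-likelihood, 1 with an unadjusted p below 0.05, 0 by the likelihood ratio test and 0 by DESeq2), where 0% of all genes were called. At 170 d the median was 2.57, which was -0.63 without R&Zflox replicate 1, and 0 of the 31 were called against 0% of all genes (12 with an unadjusted p below 0.05, 8 by the likelihood ratio test, 6 by DESeq2). The undamaged livers pooled 3M and 7M and included female mice, while all damaged livers were male and those at 4 d were taken sooner after deletion, so damage, time and sex cannot be told apart in these contrasts.

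Markers of other cell types moved with the 8 genes at 4 d to different degrees. The summed CPM of 9 macrophage markers, Adgre1, Clec4f, Trem2 and Gpnmb among them, was 705.7 and 1367 in R&Zdel and 764 and 1641 in R&Zflox, so it overlapped. Proliferation markers summed to 133 and 158 CPM against 21.5 and 49.0, and YAP targets, which include Ankrd1 and Ccn2, to 96.8 and 148 against 23.8 and 38.1. Stellate cell and fibroblast markers summed to 328 and 922 CPM against 183 and 281, lymphocyte markers to 25.7 and 56.3 against 12.5 and 26.9, and neutrophil markers to 28.9 and 80.2 against 41.8 and 55.7. None of the markers of these 6 lists was at 0 in a 4 d library. Hepatocyte markers summed to 77292 and 93615 CPM in R&Zdel and to 96722 and 101560 in R&Zflox. The part of macrophages, which can make Spp1, and of proliferation, YAP activity, fibroblasts and hepatocyte RNA in the biliary gap was not tested.

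The 8 genes were picked with their values in these livers in view. Tests of them in undamaged livers and after PHx thus describe these libraries and are no independent evidence. In undamaged livers, the 8 genes were compared between genotypes. None was called between R&Zdel and R&Zflox at 1M, 3M or 7M by edgeR's quasi-likelihood test with batch and sex in the model, where 0.436%, 0.226% and 0.451% of 12848 genes were called. At 1M, 2 of the 8, Krt19 and Krt7, had an unadjusted p below 0.05, the likelihood ratio test called 0 and DESeq2 called 1. At 3M and at 7M, 0 of 8 had an unadjusted p below 0.05, and neither the likelihood ratio test nor DESeq2 called any. The R&Zdel effect did not pass a test of change from 1M to 3M or to 7M in any of the 8 (0 called against 0% and 0% of all genes, with 2 and 1 at an unadjusted p below 0.05, 0 and 0 by the likelihood ratio test, and 0 and 1 by DESeq2). None of the 22 further cholangiocyte genes tested was called at 1M, 3M or 7M either, with 4, 4 and 7 at an unadjusted p below 0.05, 1, 0 and 1 by the likelihood ratio test and 1, 1 and 0 by DESeq2.

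Detection limited this test. In the 30 libraries of batch 2, Krt23 was at 0 in 22, Krt7 in 20 and Cldn7 in 15. Krt19 was at 0 in 12, Epcam in 7 and Cd24a in 6. By library depth alone, a count of 0 allows up to 0.0933 to 0.256 CPM, and other losses of detection were not tested. Epcam had 10 or more counts in 17 libraries and Krt23 in 7, and 1 to 9 counts were seen in 6 libraries for Epcam and Cd24a each and in 5 for Cldn7. Krt7 had 206 counts (13.7 CPM) in R&Zdel PHx 21 d replicate 2 and Cldn7, Cd24a, Krt19, Krt23 and Epcam had 0 in the same liver. In the 18 grouped libraries of batch 1, none of the 8 was at 0 in any library. A gene absent from a batch 2 library is thus not shown to be absent from the liver.

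**Figure D4:**
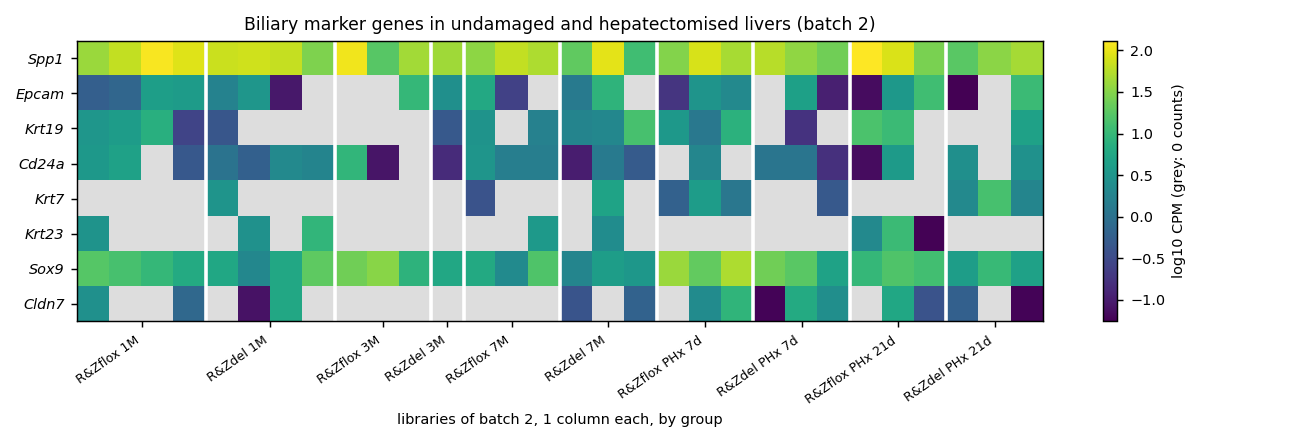
Log10 CPM of the 8 genes in the 30 libraries of batch 2, undamaged (1M, 3M, 7M) and after PHx (7 and 21 d), with grey for 0 counts. Spp1 and Sox9 have counts in all 30 libraries, while Krt23 is grey in 22 and Krt7 in 20.

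Sox9 and Spp1 were found in every library and carry the firmest values. At 1M, Sox9 reached 17.04, 13.7, 9.60 and 6.34 CPM in R&Zflox and 5.68, 2.01, 5.88 and 19.2 CPM in R&Zdel, and the groups overlapped through the last R&Zdel liver. Over 1M, 3M and 7M in turn, the log2 fold changes of Sox9 were -0.81, -1.49 and -1.08, their standard errors 0.67, 0.90 and 0.62, and their edgeR adjusted p-values 0.943, 0.816 and 0.645. Spp1 reached 40.8, 63.4, 119 and 89.5 CPM in R&Zflox and 70.6, 75.2, 66.8 and 29.2 CPM in R&Zdel at 1M. For Spp1, the log2 fold changes were -0.51, -0.20 and 0.03, their standard errors 0.51, 0.64 and 0.46, and their edgeR adjusted p-values 0.972, 0.985 and 0.998. At 7M in batch 2, Sox9 reached 6.16, 2.27 and 15.1 CPM in R&Zflox and 1.91, 4.13 and 3.33 CPM in R&Zdel, and Spp1 35.3, 64.8 and 50.4 against 19.7, 93.7 and 12.2 CPM. At 3M, Sox9 reached 5.74 CPM in the R&Zdel liver of batch 2 against 23.9, 32.33 and 8.26 CPM in R&Zflox, and 2.07 CPM in that of batch 1 against 3.13 and 9.87 CPM. At that time R&Zdel lay below every R&Zflox liver of its batch, with 1 R&Zdel liver per batch. In batch 1 that R&Zdel liver was female and the R&Zflox livers were male, so genotype and sex cannot be told apart there. Neither gene passed the test at any of the 3 times.

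After PHx, which removes liver mass without toxic injury, 0 of the 8 were called at 7 d, where 0.274% of 12773 genes were, or at 21 d, where 0.329% were (edgeR quasi-likelihood test). At 7 d, 1 of the 8, Krt19, had an unadjusted p below 0.05, and the likelihood ratio test and DESeq2 called 0. Sox9 at 7 d reached 40.7, 20.2 and 50.4 CPM in R&Zflox and 24.3, 18.1 and 4.83 CPM in R&Zdel (log2 fold change -1.30, SE 0.69, edgeR adjusted p = 0.841). Spp1 reached 30.6, 82.6 and 46.9 against 57.4, 35.4 and 24.2 CPM (-0.52, SE 0.48, edgeR adjusted p = 1). Both genes overlapped between genotypes.

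At 21 d after PHx, Spp1 reached 130.6, 84.8 and 27.1 CPM in R&Zflox and 18.04, 33.8 and 45.8 CPM in R&Zdel. In the same livers Sox9 reached 9.82, 15.5 and 12.6 CPM against 4.12, 10.4 and 4.67 CPM (-0.72, SE 0.72, edgeR adjusted p = 0.851). The log2 fold change of Spp1 was -1.73 (SE 0.51), with an unadjusted p of 0.00275 and an edgeR adjusted p of 0.267. Its direction was the reverse of that after CCl4, though the third R&Zflox liver lay inside the R&Zdel range. Krt7 was at 0 in all 3 R&Zflox livers and reached 2.14, 13.7 and 1.89 CPM in R&Zdel, without overlap, with an edgeR adjusted p of 0.473. Krt19 reached 14.6, 11.1 and 0 CPM in R&Zflox and 0, 0 and 4.73 CPM in R&Zdel, and Epcam 0.0701, 3.50 and 12.2 against 0.0550, 0 and 11.1 CPM. Krt7 and Krt19, both keratins of ducts, thus pointed in opposite directions.

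By the looser rule that the study applied to PHx, an unadjusted p below 0.05 with a fold change above 2, 1 of the 8 passed at 7 d (Krt19, lower in R&Zdel), against 3.99% of all genes, and 4 at 21 d (Epcam, Krt19 and Spp1 lower, Krt7 higher), against 6.56%. The likelihood ratio test called 1 of the 8 at 21 d, Spp1, and DESeq2 called these 4. Spp1 was also called without the filter on low counts and without R&Zflox replicate 3. The change of the R&Zdel effect from 7 to 21 d was called for 0 of the 8 and 0% of all genes (1 at an unadjusted p below 0.05, 0 by the likelihood ratio test, 1 by DESeq2). None of the 21 further cholangiocyte genes tested was called at 7 or 21 d, with 3 and 2 at an unadjusted p below 0.05, 0 and 1 by the likelihood ratio test and 0 and 1 by DESeq2.

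None of the 8 was called between hepatectomised and undamaged 1M livers. The 0 of 8 stood against 0.0235% of all genes in R&Zflox and 0.0157% in R&Zdel at 7 d, with 1 and 2 at an unadjusted p below 0.05, 0 and 0 by the likelihood ratio test and 1 and 0 by DESeq2. At 21 d they stood against 0% and 0%, with 0 and 1 at an unadjusted p below 0.05, 0 and 0 by the likelihood ratio test and 0 and 1 by DESeq2. Sox9 had log2 fold changes of 1.09 (SE 0.70, edgeR adjusted p = 0.927) in R&Zflox and 0.61 (SE 0.67, adjusted p = 1) in R&Zdel at 7 d, and of -0.39 and -0.29 at 21 d. Whether the CCl4 and PHx responses of the 8 genes differ was not tested, since no CCl4 library was in the batch of the PHx libraries.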

How the data were processed

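RNA of whole mouse liver was measured in 53 libraries of 50-base single reads, and 2 further records were not analysed here. The deposited values are raw counts per gene, which the authors made, per the submitters' processing notes, with Trim Galore, STAR 2.5.0a and featureCounts 1.5.0-p1 or 1.5.0-p3 on mm10. Counting ignored strand, so a gene and a transcript antisense to it cannot be told apart, and no exon of the 8 genes overlaps one of another symbol. No library pair was identical, and total counts per library limit the precision of each value.

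Groups came from the sample labels, and every column of the tables was mapped (0 left over). CPM used each library's total over all listed symbols. Tests used the 34490 symbols of both batches in edgeR 4.0.16 (R 4.3.3), with TMM scaling and the quasi-likelihood test, in 4 fits. The undamaged fit had sex and batch as covariates, the PHx fit (with undamaged 1M libraries of batch 2) had sex, and the CCl4 fit had none. The last fit set CCl4 against undamaged batch 1 libraries. Genes needed a CPM above 1 in at least 3 libraries, or in 6 for the CCl4 fit. A call asked for a Benjamini-Hochberg adjusted p under 0.1 and an absolute log2 fold change above 1. Similar genes were ranked by the correlation of log2(CPM + 0.5).

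The 8 genes, the further cholangiocyte genes and the marker lists were chosen with earlier results of these data known. Named genes were the 8 members, the 8 genes most like their mean profile, at most 6 further genes called per comparison by size of log2 fold change, and Cftr, Sctr, Krt8 and Krt18 whatever their change. A few results on single genes are not reported here. Genes of the high 170 d pair were chosen after their values were seen. The contrast of 4 d with 170 d was added after the design was set. Scripts (Python 3.11.15, pandas 2.3.3, numpy 2.4.6) were tested on simulated data. Alternatives were DESeq2 1.42.0, the likelihood ratio test, other filters, thresholds and scalings, other placements of libraries with conflicting labels, a replicate block and each library left out.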

Additional observations from a re-analysis of the deposited data

Results flagged for a closer look

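In 10 of 40 tests of a gene in a group of 4 or 5 undamaged libraries, 1 library stood far above the rest by Dixon's ratio. The R&Zflox 3M group and both 7M groups mixed the 2 batches, and many values were 0. The usual chance rate of about 1 in 20 groups thus does not hold here. All 10 were high values in batch 2, where these low genes were often at 0. Epcam stood apart at 8.61 CPM in R&Zdel 7M replicate 4, at 9.77 CPM in R&Zflox 3M replicate 5 and at 5.94 CPM in R&Zflox 7M replicate 2. Cldn7 reached 5.79 CPM in R&Zdel 1M replicate 3. Cd24a reached 9.13 CPM in R&Zflox 3M replicate 3 of batch 2 and 3.14 CPM in R&Zflox 7M replicate 2. Among the keratins, Krt7 reached 3.04 CPM in R&Zdel 1M replicate 1, Krt19 0.445 CPM in the same library and 13.7 CPM in R&Zdel 7M replicate 5, and Krt23 2.98 CPM in R&Zflox 1M replicate 1. R&Zflox 7M replicate 2 was marked for 2 genes and so was R&Zdel 1M replicate 1, and the other 6 libraries for 1 gene each.

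The 5 libraries with conflicting labels belong to no comparison. Above the highest undamaged R&Zflox library of batch 1 lay 2 of the 8 genes in the first of them, 5 in the second, 6 in the third, 5 in the fourth and 3 in the fifth. How many of all genes lay above it was not counted, so nothing is read from these counts. A test of the difference between times after CCl4 was run on the 26 further cholangiocyte genes. The R&Zdel effect was larger at 4 d than at 170 d for 11 of them, where 3.75% of all genes were called in that direction. This count was 1 where the late libraries were placed by their characteristics.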

How the results depend on the processing

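The CCl4 pattern at 4 d was the firmest: over the alternatives run, the median log2 fold change of the 8 genes stayed between 4.45 and 4.99, and 14 to 17 of the further cholangiocyte genes were called when 1 library was left out. Results at 50 and 170 d rested on few libraries. At 50 d, 6 of the further genes were called, which became 1 at an adjusted p under 0.05, 19 with no filter, 13 by the likelihood ratio test, 10 by DESeq2, 2 in a fit of all batch 1 libraries and 1 to 4 when 1 library was left out. Placing the late libraries by their characteristics gave 0 calls at 50 d and a median of 1.31 for the 8 genes, and counting both R&Zflox 170 d libraries as 50 d gave a median of 1.13 and turned Krt19 to -1.50. At 170 d, 0 further genes were called, and 5 with no filter, 2 by the likelihood ratio test and 2 by DESeq2. The median of the 8 genes at 170 d, -0.13, lay between -0.92 and 2.98 when 1 library was left out.

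The 11 genes with a larger effect at 4 d than at 170 d became 6 at an adjusted p under 0.05, 22 with no filter, 1 with late libraries by characteristics, 7 in the batch 1 fit and 1 to 14 when 1 library was left out. The median of the 8 genes in that contrast was 2.30 to 6.23 with 1 library left out, and Krt19 -0.25 to 8.03, the lower value without R&Zflox 170 d replicate 1. Leaving out both livers with high Dmbt1 at 170 d, chosen after seeing the data, gave 11 calls at 50 d, a median of 2.01 at 170 d, and 2 calls and a median of 2.86 for 4 d against 170 d.

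For R&Zflox livers at 4 d against undamaged ones, the median was -0.11 to 0.19, and 0.34 without R&Zflox 3M replicate 3 of batch 1, and 0 to 3 further genes were called when 1 library was left out. At 170 d, R&Zflox had 12 further genes called with no filter, 8 by the likelihood ratio test, 6 by DESeq2 and 0 to 11 when 1 library was left out, with medians from -0.63 to 3.47. The median was -0.62 without both high-Dmbt1 livers. Epcam then was -0.65, Cldn7 -0.95, Cd24a -0.027, Krt7 -0.47 and Krt19 -0.59, and with 1 library left out they ran from -0.66 to 3.10, -0.97 to 3.92, -0.045 to 4.59, -0.49 to 3.83 and -0.60 to 5.63. R&Zdel at 170 d had 7 further genes called with no filter, 3 by the likelihood ratio test and 3 by DESeq2.

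Among the 8 genes, DESeq2 called 1 at 1M, 1 for the change from 1M to 7M, 4 at PHx 21 d, 1 for the change from PHx 7 to 21 d, 1 for R&Zflox PHx 7 d against 1M and 1 for R&Zdel PHx 21 d against 1M. At PHx 21 d the unfiltered fit and the likelihood ratio test called 1 each, and leaving out 1 library gave 0 to 1. No comparison of 3 or more pairs had every correlation of same-numbered libraries above 0.1, so the numbers do not pair the samples. At 4 d, where the 2 pairs had a correlation of 0.295, the replicate block gave a median of 4.70 and 26 further genes called, and 2862 genes in all against 1729. At 170 d, where the correlation was -0.522, the replicate block gave a median of 0.62 and 0 genes called against 71, and crossed numbers, added after seeing the data, gave 70 and 0.54. At 1M, 7M, PHx 7 d and PHx 21 d, the block called 15, 6, 0 and 15 genes in place of 56, 58, 35 and 42, and none of the 8 genes. No paired fit was possible at 3M or 50 d, where fewer than 2 numbers are shared. Placing 1 conflicting library assumed that it was male. For these changes, the cause was not tested. Detection limits the 6 genes other than Sox9 and Spp1 in batch 2, where a count of 0 leaves up to 0.256 CPM by depth alone. Other losses of detection were not tested.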

Other observations

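The 2 livers with high keratins at 170 d after CCl4, R&Zdel replicate 2 and R&Zflox replicate 1, shared 12 genes that exceeded 3 CPM in both and were at least 4 times their highest level in the other 21 libraries of batch 1, by a rule made after the values were seen. Dmbt1 reached 362 and 592 CPM, against at most 3.35 CPM elsewhere. Ctrb1, a chymotrypsinogen of pancreatic acinar cells, reached 58.0 and 53.2 CPM against at most 0.194 CPM. Spink4, a gene of goblet cells, reached 17.3 and 26.2 CPM, and Car9, a carbonic anhydrase of hypoxic and biliary epithelium, 17.04 and 16.4 CPM. Muc3 and Reg1, of gut mucus and regenerating pancreas, reached 9.25 and 9.98 CPM and 3.58 and 9.94 CPM. The others were B4galnt2, Pgc, Slc14a1, Phgr1, Car4 and Flrt3. The summed CPM of the pancreas markers ranged from 1.41 to 60.6 over the R&Zdel livers at 170 d and from 0.301 to 53.6 over the R&Zflox livers. In the 2 high livers most of this sum was Ctrb1. The part of pancreas or gut RNA in the keratin levels of these 2 livers was not tested.

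The 5 libraries with conflicting labels were all of batch 1. Epcam reached 1.04, 5.63, 8.28, 3.62 and 1.76 CPM in them, Krt19 1.69, 2.14, 6.51, 2.46 and 1.39 CPM, and Krt7 1.85, 2.40, 6.03, 1.78 and 0.635 CPM. The third library was the highest for these 3 genes. Sox9 reached 1.69, 6.94, 6.06, 2.40 and 3.12 CPM, Spp1 60.4, 281, 304, 147 and 134 CPM, and Krt23 5.67, 2.23, 2.44, 2.30 and 2.25 CPM. Cd24a reached 1.04, 6.90, 6.18, 4.42 and 1.62 CPM and Cldn7 0.281, 3.01, 3.77, 1.89 and 1.33 CPM. None came near the R&Zdel livers at 4 d.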
